A study of Mus musculus with 18 samples.

Results

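The nuclear-encoded subunits of the mitochondrial respiratory chain were followed through both assays of a study of embryonic cortex. Members were chosen by gene symbol, taking the *Nduf* subunit genes of complex I, *Sdha* to *Sdhd* of complex II, the *Uqcr* genes of complex III and the *Cox4* to *Cox8* genes of complex IV. Of 70 symbols that matched, 2 pseudogenes of *Uqcrh* were left out. This gave 68 members among the 55153 genes of the RNA-seq count table, of which 37 belong to complex I, 4 to complex II, 8 to complex III and 19 to complex IV. *Cox6c2*, 1 of the 68, is listed as a pseudogene by RefSeq, and *Ndufa4*, counted here with complex I by its symbol, is known as a subunit of complex IV.

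RNA-seq and Ribo-seq, which sequences the mRNA fragments protected by ribosomes (footprints), were made from cerebral cortices of C57BL/6 mice at embryonic day 15.5. The control group (Ctrl) is labelled wild type, *F*-cKO mice carry *Emx1*-Cre and floxed alleles of *Fto*, and *M*-cKO mice carry *Emx1*-Cre and floxed alleles of *Mettl3*. Each group had 3 libraries per assay, labelled as biological repeats. The methods give the source of 3 Ribo-seq samples only as 1 L, and whether animals were pooled is not stated, so *P* values measure the spread between these libraries. *Emx1*-Cre acts in cells of the dorsal telencephalic lineage, so blood, vessel and meningeal cells of the same tissue keep the genes, and per the methods the floxed lines had a mixed background. RNA-seq libraries held 18504094 to 22592406 counts and Ribo-seq libraries 10973699 to 35853227.

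The respiratory chain sits in the inner mitochondrial membrane, where complex I takes electrons from NADH and complex II from succinate, complex III passes them from ubiquinol to cytochrome c, and complex IV hands them to oxygen. Complexes I, III and IV pump protons, and the gradient drives ATP synthase. Most subunits are made from nuclear genes and imported, a few core subunits are made inside the organelle from mitochondrial DNA, and cortical cells shift towards respiration as progenitors become neurons.

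The deleted genes were read first, as a check of the labels. *Fto*, which encodes an m6A demethylase, had footprint levels of 25.9, 22 and 17.6 RPKM (reads scaled for gene length and library size) in Ctrl, 3.91, 2.11 and 4.04 in *F*-cKO, and 26.1, 23.7 and 22.1 in *M*-cKO. All *F*-cKO libraries lay below all others, with a log2 fold change against Ctrl of −2.67 whose adjusted *P* over all genes was 0.350. In RNA-seq, *Fto* stood at 10.8, 11.2 and 8.37 FPKM (fragments scaled in the same way) in Ctrl and 3.26, 7.56 and 2.43 in *F*-cKO, so that *F*-cKO library 2 came close to the lowest Ctrl library (−1.21, adjusted *P* = 0.0298). *Mettl3*, the catalytic subunit of the m6A methyltransferase, had 9.16, 9.25 and 9.93 RPKM in Ctrl and 6.78, 6.02 and 6.40 in *M*-cKO footprints. These 3 *M*-cKO libraries were below every Ctrl library (−0.55, adjusted *P* = 0.0157). Its RNA was higher instead, at 5.84, 6.43 and 5.07 FPKM in Ctrl and 8.61, 7.82 and 8.34 in *M*-cKO (0.50, adjusted *P* = 0.00221). The tables give 1 value per gene and do not separate the deleted exons, so *Mettl3* RNA does not check the *M*-cKO labels.

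Ribo-seq *F*-cKO library 2 stood apart from the other libraries. It had the lowest depth, 10973699 counts, and a summed member level of 3965 RPKM against 6968 and 6849 in the other *F*-cKO libraries. Its endothelial markers summed to 86.2 RPKM, compared to 5.15 and 7.12 in the other *F*-cKO libraries. Footprint comparisons with *F*-cKO are therefore given with and without it.

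In Ctrl cortex the members were abundant. Their median Ctrl level was 48.2 FPKM, compared to 7.11 over the 13574 genes with a Ctrl mean of at least 1. The 3 highest were all complex IV genes, *Cox6a1* with 465 FPKM, *Cox8a* with 295 and *Cox4i1* with 223. These are the widely expressed isoforms of their subunits. The isoforms known from heart and skeletal muscle were near the floor, with *Cox7a1* at 1.78 FPKM, *Cox6a2* at 0.052 and *Cox8b* at 0, and the testis forms *Cox7b2* and *Cox8c* were at 0.060 and 0. *Cox4i2*, a form known from lung and pericytes, reached 1.45 FPKM, and *Cox6b2*, best known from testis, 2.73. A total of 62 members passed the filter on low counts in RNA-seq, and the same number had footprint counts in all 9 Ribo-seq libraries. For the other 6, *Cox6a2*, *Cox6c2*, *Cox7a1*, *Cox7b2*, *Cox8b* and *Cox8c*, the footprint count table is blank in all libraries but *F*-cKO library 1, with no reason stated, so they were not tested in footprints. Levels are given for them, such as 1.7, 1.56 and 1.64 RPKM for *Cox7a1* in Ctrl.

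Footprints followed a different order from RNA. *Cox6b1* was highest with 510 RPKM in Ctrl, then *Ndufa1* with 357 and *Cox8a* with 339. The Spearman correlation of Ctrl FPKM with Ctrl RPKM over the 63 members at 1 FPKM or more was 0.708. Translation efficiency (TE), taken as mean RPKM over mean FPKM, had a median of 1.46 over these members and 0.717 over all 13410 genes with a value. The genes with a value were not limited to protein-coding ones. Both assays were scaled by the same gene model lengths up to a constant. The gap between these medians is therefore not read as a difference in rates of translation. By complex the median was 1.52 for complex I, 2.57 for complex II, 1.59 for complex III and 0.919 for complex IV. *Cox7c* with a TE of 0.10 and *Cox7a2l* with 0.102 were near the low end. At the other end, *Uqcrc1*, a core protein of complex III, had 79.6 RPKM of footprints with 1.89 FPKM of RNA, a TE of 42.2. *Ndufs3*, a core subunit of complex I, had 39.0, 41.3 and 30.2 RPKM in Ctrl but a single RNA-seq count over all 9 libraries. RNA values of *Uqcrc1* and *Ndufs3*, and their TE, are uncertain, and no change is read from them.

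RNA levels were also summed over each complex. The 37 complex I genes summed to 1905, 1897 and 1924 FPKM in Ctrl, 1688, 1663 and 1582 in *F*-cKO, and 1719, 1730 and 1894 in *M*-cKO. Both knockouts lay below Ctrl in every library, with *M*-cKO library 3 close to the lowest Ctrl library. Complex IV genes summed to 1786, 1859 and 1886 FPKM in Ctrl, 1577, 1498 and 1435 in *F*-cKO, and 1920, 1906 and 2102 in *M*-cKO. Here *F*-cKO was below and *M*-cKO above all Ctrl libraries. Without *Cox7a2l* the *M*-cKO sums were 1748, 1735 and 1914 FPKM, overlapping Ctrl at 1685, 1751 and 1780. In complex III *F*-cKO was again below and *M*-cKO above Ctrl, with 592, 592 and 593 in Ctrl, 528, 517 and 522 in *F*-cKO, and 617, 609 and 664 in *M*-cKO. Without *Uqcrfs1* its *M*-cKO sums were 491, 488 and 540 FPKM, overlapping Ctrl at 497, 503 and 502. The 4 complex II genes gave 180, 186 and 181 in Ctrl, 186, 174 and 171 in *F*-cKO, and 169, 162 and 189 in *M*-cKO, and their ranges overlapped. As percentages of the Ctrl mean, the *F*-cKO means were 86.1, 97.3, 88.2 and 81.6 for complexes I to IV, and the *M*-cKO means 93.3, 95.3, 106.3 and 107.2. Cortex was taken in bulk, so fewer cells of a type and less RNA per cell cannot be told apart in any of these values.

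**Figure D1:**
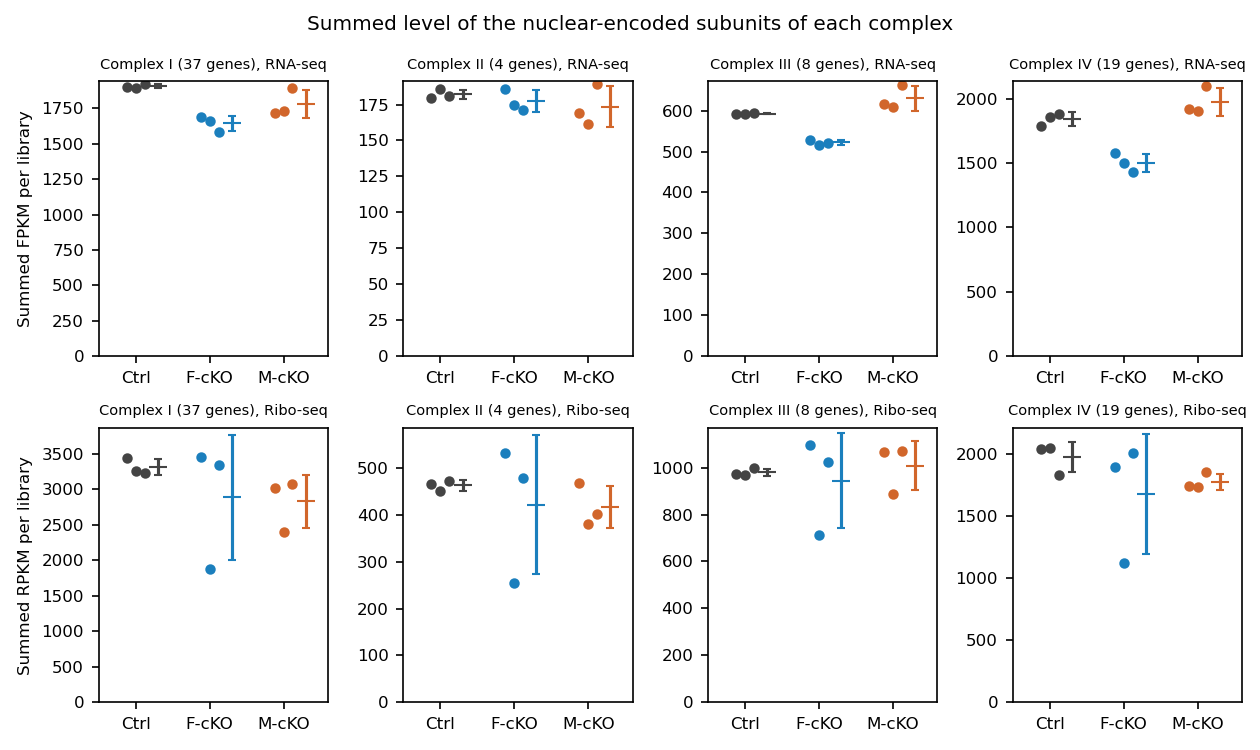
Summed FPKM in RNA-seq (top) and summed RPKM in Ribo-seq (bottom) of the subunit genes of each complex; dots are libraries and bars the group mean with SD (n = 3). In RNA-seq the *F*-cKO libraries lie below Ctrl for complexes I, III and IV, and in Ribo-seq *F*-cKO library 2 is the lowest of its group for each complex.

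Deletion of *Fto* was compared to Ctrl to ask which subunit mRNAs differ when the demethylase is lost. In RNA-seq, 0 members were called higher and 29 of 62 lower at an adjusted *P* below 0.05 (edgeR quasi-likelihood test, Benjamini-Hochberg over 16944 genes), compared to 11.5% of all genes called higher and 9.57% lower. At an unadjusted *P* below 0.05, 1 member was higher and 38 were lower (3081 and 2963 of all genes), and DESeq2 called 0 higher and 26 lower (12.3% and 9.73% of all genes). The median log2 fold change was −0.205 over the members and −0.0127 over all genes tested. Calls fell in complex I (16 of 36), complex III (4 of 8) and complex IV (9 of 14), and in complex II no gene was called by edgeR or DESeq2, with 1 higher and 2 lower at an unadjusted *P* below 0.05. Complex IV had the lowest median, −0.332, compared to −0.196 for complex I, −0.127 for complex II and −0.197 for complex III. The number called lower was 19, 17 and 13 without Ctrl library 1, 2 or 3, 17 without *F*-cKO library 2 and 18 with the replicate number as a block. The share of all genes called lower fell in these fits too, to 5.49%, 6.97%, 3.23%, 4.68% and 5.05%.

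In complex I, the members with the smallest adjusted *P* were accessory subunits. *Ndufv3*, of the module that oxidizes NADH, had 22.5, 21.5 and 21.5 FPKM in Ctrl and 16.8, 16.7 and 17.6 in *F*-cKO, a log2 fold change of −0.37 ± 0.063 (SE; adjusted *P* = 0.00544). *Ndufa5*, of the peripheral arm, went from 70.0, 69.5 and 71.2 to 59.1, 55.9 and 53.7 FPKM (−0.33 ± 0.061; adjusted *P* = 0.00694). *Ndufs5* had 102, 108 and 106 FPKM in Ctrl and 89.1, 84.4 and 76.6 in *F*-cKO (−0.35 ± 0.067; adjusted *P* = 0.00837). In all 3, every *F*-cKO library was below every Ctrl library. Such separation was frequent over the 13574 genes with a Ctrl mean of at least 1. Of these, 20.8% lay wholly below Ctrl in *F*-cKO and 24.4% wholly above, compared to 44 and 2 of 63 members. The same separation was seen for *Ndufb9*, of the membrane arm, with 41.9, 42.1 and 41.8 FPKM in Ctrl and 31.2, 35.1 and 31.8 in *F*-cKO (−0.37 ± 0.073; adjusted *P* = 0.0093). Among the 7 nuclear core subunits, which carry the flavin and iron-sulfur clusters or the ubiquinone site, 6 were tested and 2 were called lower, *Ndufs7* (−0.32, adjusted *P* = 0.0187) and *Ndufs8* (−0.25, adjusted *P* = 0.0437). *Ndufv1*, which binds NADH, overlapped between the groups, with 45.6, 48.7 and 47.3 FPKM in Ctrl and 46.5, 45.2 and 43.0 in *F*-cKO.

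Complex II, which is also an enzyme of the citric acid cycle, held the member with the highest log2 fold change. *Sdha*, its flavoprotein, had 46.2, 44.8 and 42.5 FPKM in Ctrl and 54.2, 49.0 and 48.9 in *F*-cKO (0.18 ± 0.06, adjusted *P* = 0.0718). All *F*-cKO libraries were above Ctrl, but the difference missed the threshold. It was called higher when all groups were placed in one fit. *Sdhb*, the iron-sulfur subunit, had 53.5, 53.8 and 54.6 FPKM in Ctrl and 51.6, 48.9 and 49.3 in *F*-cKO, and the membrane anchors *Sdhc* and *Sdhd* were not called.

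In complex III the called members were small accessory subunits. *Uqcr10* had 109, 111 and 107 FPKM in Ctrl and 90.0, 89.2 and 89.9 in *F*-cKO (−0.29 ± 0.058, adjusted *P* = 0.00939). *Uqcrb*, at the ubiquinone-binding side, had 64.3, 64.4 and 71.8 FPKM in Ctrl and 53.3, 54.1 and 43.8 in *F*-cKO (−0.42 ± 0.091, adjusted *P* = 0.0132). Both were lower in every *F*-cKO library. *Uqcrh*, the hinge protein that contacts cytochrome c1, and *Uqcrq* were called with −0.20 (adjusted *P* = 0.0314) and −0.19 (adjusted *P* = 0.034). *Uqcrfs1*, the Rieske iron-sulfur protein, stayed nearer to Ctrl, with 95.1, 89.6 and 91.2 FPKM in Ctrl and 87.9, 83.5 and 87.5 in *F*-cKO, and was not called.

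In complex IV each of the 14 members tested had a negative log2 fold change, and 9 passed the threshold. *Cox6c* had 46.9, 45.9 and 46.5 FPKM in Ctrl and 38.1, 35.9 and 36.6 in *F*-cKO (−0.34 ± 0.053, adjusted *P* = 0.00423). *Cox8a* had 284, 309 and 292 FPKM in Ctrl and 239, 231 and 230 in *F*-cKO (−0.35 ± 0.058, adjusted *P* = 0.00491). *Cox7a2* went from 108, 112 and 113 to 86.4, 92.5 and 86.9 FPKM (−0.34 ± 0.057, adjusted *P* = 0.00534). These are small single-pass membrane subunits, and their groups did not overlap. *Cox6b1*, which faces the intermembrane space where cytochrome c binds, had 218, 211 and 228 FPKM in Ctrl and 181, 176 and 173 in *F*-cKO (−0.32 ± 0.056, adjusted *P* = 0.00583). The most abundant member, *Cox6a1*, had 442, 470 and 483 FPKM in Ctrl and 404, 379 and 317 in *F*-cKO (−0.35, adjusted *P* = 0.0204). *Cox4i1*, the largest nuclear-encoded subunit, had −0.26 (adjusted *P* = 0.0298) and *Cox7b* −0.33 (adjusted *P* = 0.0137). *Cox7a1* had the lowest fold of all members, −0.67, but at 1.33, 1.5 and 2.5 FPKM in Ctrl and 1.27, 1.37 and 0.692 in *F*-cKO its groups overlapped (adjusted *P* = 0.252). *Cox7a2l* overlapped as well, with 101, 108 and 106 FPKM in Ctrl and 100, 90.4 and 103 in *F*-cKO.

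**Figure D2:**
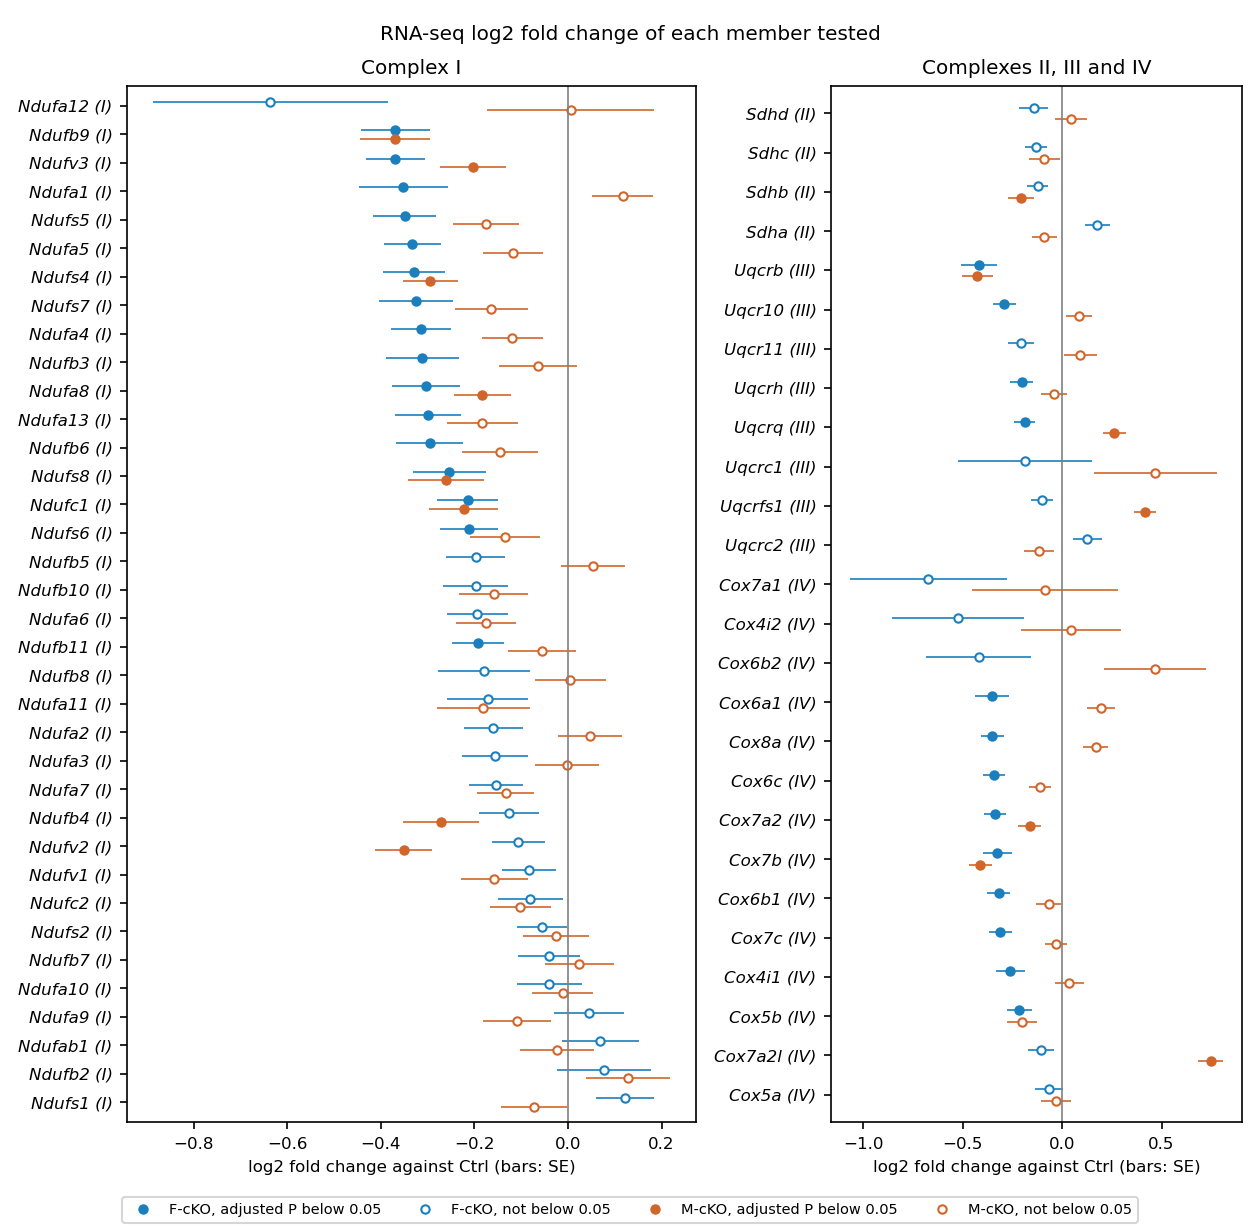
RNA-seq log2 fold change against Ctrl, with SE, of the 62 members tested, for *F*-cKO (blue) and *M*-cKO (orange); filled points have an adjusted *P* below 0.05. In *F*-cKO 29 members are filled and all lie below 0, and in *M*-cKO 3 filled points lie above 0 and 12 below.

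Members are short genes, with a median model length of 1387 bases compared to 3998 over all genes tested, and the *F*-cKO fold changes moved with length. Over all genes tested, the median log2 fold change in *F*-cKO was −0.190 below 750 bases, −0.133 from 1000 to 1500 bases, −0.0132 from 3000 to 5000 bases and 0.0684 above 5000 bases. For members the medians in these classes were −0.320 (9 genes), −0.251 (14 genes), −0.132 (7 genes) and 0.0733 (4 genes). Members sat below all genes of similar length in the classes up to 2000 bases and from 3000 to 5000 bases, and near them above 5000 bases and from 2000 to 3000 bases, with −0.0830 compared to −0.0793. Over the 62 members the Spearman correlation of log2 fold change with length came to 0.577 for *F*-cKO and to −0.0388 for *M*-cKO, as a description over genes that share libraries. When the trend with length was removed in each library, an alternative chosen after the data were seen, 0 members were called higher and 7 lower in *F*-cKO, with a median of −0.104, while 8.6% of all genes were called higher and 8.34% lower. Of these 7, 6 were among the 29, namely *Cox6c*, *Cox7a2*, *Ndufa5*, *Ndufs4*, *Ndufs5* and *Ndufv3*, and the other was *Ndufb5*. The part of length, or of library preparation that acts on length, in the calls was not tested.

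**Figure D3:**
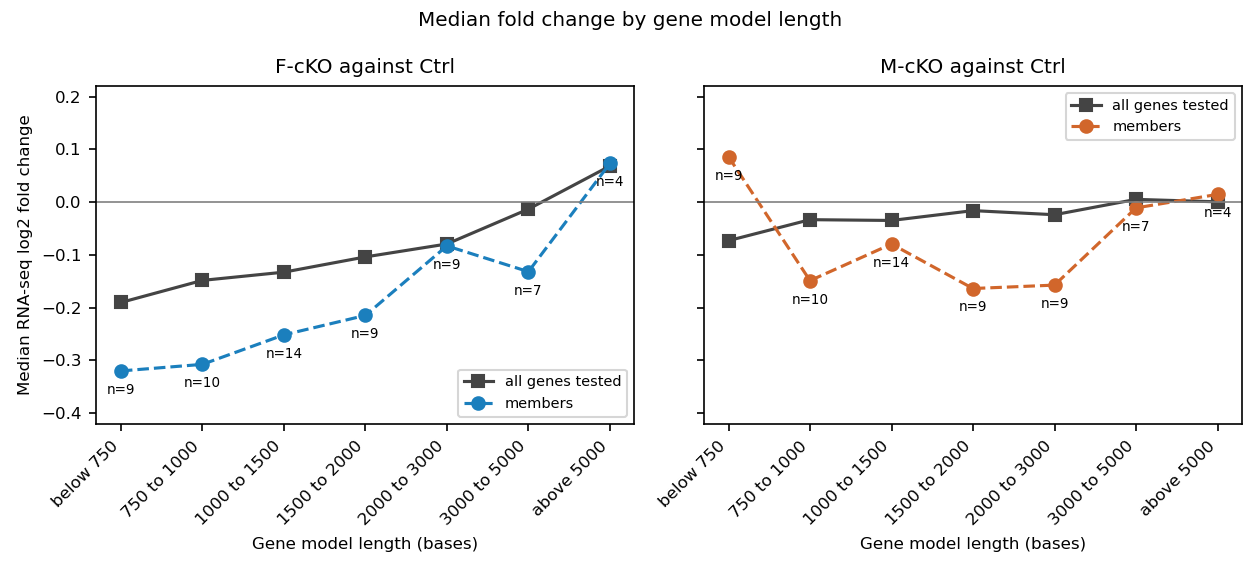
Median RNA-seq log2 fold change by class of gene model length for all genes tested (grey squares) and members (coloured circles, with their number). In *F*-cKO both medians rise with length, from −0.190 and −0.320 below 750 bases to 0.0684 and 0.0733 above 5000 bases.

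Deletion of *Mettl3* was compared to the same Ctrl libraries, so the folds of both knockouts share their reference. In *M*-cKO RNA-seq, 3 of 62 members were called higher and 12 lower, compared to 15.5% and 14.1% of the 16968 genes tested. The median log2 fold change was −0.0884 over members and −0.00983 over all genes. In complex I 8 were lower, in complex II 1 was lower, in complex III 2 were higher and 1 lower, and in complex IV 1 was higher and 2 were lower. Complex III had a positive median, 0.0891, compared to −0.126 for complex I, −0.0893 for complex II and −0.0296 for complex IV. The number called lower was 5 or 6 without any one of Ctrl libraries 1, 2 and 3 or *M*-cKO libraries 1 and 2, with 8.65% to 12.4% of all genes lower in these fits, and 19 without *M*-cKO library 3, with 11.9%. The number called higher was 5 without Ctrl library 2 (14.5% of all genes), and with no filter on low counts 6 were higher and 7 lower (10.2% and 7.88%).

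The members called higher were *Cox7a2l*, *Uqcrfs1* and *Uqcrq*. *Cox7a2l* had 101, 108 and 106 FPKM in Ctrl and 171, 171 and 188 in *M*-cKO, a log2 fold change of 0.75 ± 0.063 (adjusted *P* = 2.86e-05). The floxed lines had a mixed background per the methods, and which allele of this gene each library carried was not tested. *Uqcrfs1* had 95.1, 89.6 and 91.2 FPKM in Ctrl and 126, 121 and 124 in *M*-cKO (0.42 ± 0.055, adjusted *P* = 0.000295). *Uqcrq* went from 55.0, 56.5 and 56.0 to 65.2, 66.7 and 70.3 FPKM (0.26 ± 0.058, adjusted *P* = 0.0061). For all 3 genes the lowest *M*-cKO library was above the highest Ctrl library. Among all genes with a Ctrl mean of at least 1, 25.2% lay wholly above Ctrl in *M*-cKO and 23.0% wholly below. Of 63 members, 7 and 20 did.

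Of the 12 members called lower, 8 were in complex I, which holds 36 of the 62 tested. *Ndufv2*, an iron-sulfur core subunit next to *Ndufv1*, had 49.8, 47.0 and 50.7 FPKM in Ctrl and 37.3, 40.0 and 39.1 in *M*-cKO (−0.35 ± 0.061, adjusted *P* = 0.00159). *Ndufs4*, an accessory subunit needed for a stable peripheral arm, had 30.5, 29.2 and 29.7 FPKM in Ctrl and 23.9, 24.6 and 24.9 in *M*-cKO (−0.29 ± 0.058, adjusted *P* = 0.00342). *Ndufb9* stood at 31.4, 31.5 and 35.0 FPKM in *M*-cKO, below its Ctrl values (−0.37 ± 0.075, adjusted *P* = 0.00379). *Ndufb4* had −0.27 (adjusted *P* = 0.0271) and *Ndufs8* −0.26 (adjusted *P* = 0.0304). In complex II, *Sdhb* had 46.9, 43.7 and 50.6 FPKM in *M*-cKO, with each library below Ctrl (−0.21 ± 0.065, adjusted *P* = 0.0326). In complex III, *Uqcrb* had 54.1, 48.6 and 47.3 FPKM in *M*-cKO (−0.43 ± 0.078, adjusted *P* = 0.00204). *Cox7b*, an X-linked subunit of complex IV, had 82.8, 85.5 and 88.5 FPKM in Ctrl and 62.8, 65.7 and 65.9 in *M*-cKO (−0.41 ± 0.06, adjusted *P* = 0.000552). *Cox7a2*, at 99.9, 98.6 and 101 FPKM in *M*-cKO, was lower by less (−0.16, adjusted *P* = 0.0463).

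The knockouts were then compared to each other, which tests the difference between them without Ctrl. In *M*-cKO compared to *F*-cKO RNA-seq, 14 members were called higher and 4 lower, against 13.1% and 14.3% of 16802 genes. The median log2 difference was 0.133 over members and −0.00424 over all genes, with 0.0468 for complex I, −0.0314 for complex II, 0.326 for complex III and 0.278 for complex IV. Complex IV held 8 of the 14 higher members and complex III 4. *Cox8a* had 328, 319 and 354 FPKM in *M*-cKO compared to 239, 231 and 230 in *F*-cKO, and *Cox6a1* 514, 510 and 584 compared to 404, 379 and 317. Neither gene overlapped between the knockouts. With the trend with length removed, 10 members were higher and 6 lower, compared to 13% and 12.2% of all genes, with a median of 0.0350. Without *F*-cKO library 2, 9 were higher and 2 lower, compared to 8.38% and 7.7%. The number called lower was 2 without *F*-cKO library 1, 0 and 1 without *M*-cKO libraries 1 and 2, and 2 with the replicate block, compared to 12.9%, 8.69%, 8.7% and 11.2% of all genes. Markers of other cells moved in this comparison as well, with 5 of 8 erythroid markers (median 0.535) and 3 of 6 meningeal markers (median 1.43) called higher in *M*-cKO.

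Footprints of *M*-cKO were compared to Ctrl to ask whether ribosome occupancy of these mRNAs differs when the methyltransferase is lost. Of 62 members, 3 were called higher and 8 lower, compared to 7.13% and 7.5% of 14314 genes. The median log2 fold change was −0.138 over members and −0.000284 over all genes. Complex I held 1 of the higher and 6 of the lower members, complex III 2 and 1, and complex IV the other lower one. DESeq2 called 4 members higher and 13 lower, compared to 11.2% and 10.5% of all genes. Summed RPKM of the members was 6293, 5404 and 6396 in *M*-cKO, compared to 6911, 6722 and 6532 in Ctrl. As a percentage of the RPKM of all genes the members held 0.716, 0.643 and 0.594 in Ctrl and 0.285, 0.284 and 0.543 in *M*-cKO, so the size of the difference depends on the scaling.

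Footprint folds moved with length too, mainly in the shortest class. Over all genes below 750 bases the median *M*-cKO footprint fold was 0.817, with 25.5% called higher, whereas the 8 members of this class had −0.0348. In the longer classes the median over all genes lay between −0.0462 (2000 to 3000 bases) and 0.0435 (750 to 1000 bases). The paper reports a lower share of footprints in coding sequence in *M*-cKO than in control. The part of noncoding genes in the shortest class was not tested. Over genes, the Pearson correlation of each library's deviation in log2 counts per gene with log2 gene length was −0.297, −0.251 and −0.0598 in *M*-cKO, and 0.0948, 0.0645 and 0.137 in Ctrl. With the trend with length removed, 3 members were called higher and 8 lower, 10 of these 11 as in the main fit, compared to 7.22% and 6.73% of all genes, with a median of −0.168.

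*Ndufv1*, the NADH-binding subunit, had 195, 181 and 160 RPKM in Ctrl and 122, 92.4 and 113 in *M*-cKO, a log2 fold change of −0.70 ± 0.116 (adjusted *P* = 0.0138). *Ndufs5* had 69.8, 59.6 and 46.2 RPKM in Ctrl and 30.8, 21.8 and 30.4 in *M*-cKO (−1.07 ± 0.181, adjusted *P* = 0.0151), the lowest fold of all members. Every *M*-cKO library was below every Ctrl library for both. *Ndufb3* went from 195, 166 and 185 to 118, 107 and 138 RPKM (−0.58 ± 0.109, adjusted *P* = 0.0188). *Ndufs3*, with almost no RNA counts, had 24.6, 21.5 and 23.4 RPKM in *M*-cKO (−0.66 ± 0.129, adjusted *P* = 0.0207). *Uqcrc2*, a core protein of complex III, had 161, 158 and 151 RPKM in Ctrl and 116, 92.0 and 109 in *M*-cKO (−0.56 ± 0.091, adjusted *P* = 0.0138). *Cox7a2* had 361, 285 and 286 RPKM in Ctrl and 175, 157 and 217 in *M*-cKO (−0.76 ± 0.141, adjusted *P* = 0.0185). These 4 genes, too, were lower in each *M*-cKO library than in any Ctrl library.

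Footprints were higher for *Uqcr11*, *Ndufa13* and *Uqcrq*. *Uqcr11*, a small complex III subunit, had 112, 127 and 129 RPKM in Ctrl and 174, 166 and 194 in *M*-cKO (0.55 ± 0.094, adjusted *P* = 0.0153). *Ndufa13*, a complex I subunit also known as GRIM-19, had 56.7, 54.6 and 51.3 RPKM in Ctrl and 72.9, 69.4 and 72.6 in *M*-cKO (0.41 ± 0.083, adjusted *P* = 0.0222). For *Uqcrq* the values were 93.7, 95.3 and 94.5 RPKM in Ctrl and 129, 109 and 131 in *M*-cKO (0.39 ± 0.082, adjusted *P* = 0.0247), so that its RNA and footprints were both called higher. All 3 rose without overlap. *Cox7c* had the highest fold, 0.61, with 14.2, 18.5 and 20.6 RPKM in Ctrl and 20.7, 32.5 and 26.8 in *M*-cKO, and missed the threshold (adjusted *P* = 0.0997).

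Depth moved with genotype in Ribo-seq. Ctrl libraries held 35853227, 30081796 and 31570596 counts and *M*-cKO libraries 20933167, 13764136 and 21725348, while *F*-cKO libraries held 20610815, 10973699 and 32954317. *Ndufs5* footprints in the 3 *F*-cKO libraries were 36.3, 6.81 and 61.6 RPKM, and those of *Cox7a2* were 230, 102 and 316 RPKM, both genes picked with their values known. For both genes the *F*-cKO library of Ctrl-like depth lay within the Ctrl range, and the other 2 lay below it. Of the 8 members called lower in *M*-cKO footprints, 4 had this arrangement. Over the 8, *F*-cKO library 1 was below the Ctrl range for 6, library 2 for 8 and the deep library 3 for 1, with *Ndufv2* above Ctrl and *Uqcrc2* within it in library 1. Depth and genotype cannot be told apart for *M*-cKO. The *M*-cKO calls also rested on few libraries, with 0 members called higher and 0 lower without Ctrl library 1 or Ctrl library 2, 1 and 3 without Ctrl library 3, 1 and 5 without *M*-cKO library 1, and 0 and 0 with all groups in one fit. With the replicate block, 1 was higher and 7 lower. The share of all genes called lower fell in the same fits, to 1.12% and 0.433% without Ctrl libraries 1 and 2, 1.34% without Ctrl library 3, 2.65% without *M*-cKO library 1, 0.0419% in one fit and 4.46% with the block.

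In *F*-cKO footprints, edgeR called 0 members higher and 0 lower, as it did for all 14335 genes tested (0% and 0%). At an unadjusted *P* below 0.05, 0 members were higher and 0 lower (227 and 91 of all genes), and DESeq2 also called 0 and 0. The median log2 fold change over members was −0.0790, compared to 0.0458 over all genes. Without library 2 of *F*-cKO the count was again 0 and 0 and the median 0.0473, and without library 1 the median was −0.223, so the sign rests on single libraries. The median over all genes in these fits is not given, so the moves are not read as particular to the members. Summed over members, RPKM was 6911, 6722 and 6532 in Ctrl and 6968, 3965 and 6849 in *F*-cKO. The lower *F*-cKO RNA of the members thus had no counterpart that this assay could detect, at a median SE of 0.218 per member compared to 0.0664 in RNA-seq. *Cox8a* shows the spread, with footprints of 324, 455 and 238 RPKM in Ctrl and 120, 153 and 334 in *F*-cKO.

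Footprints of *M*-cKO compared to *F*-cKO gave 0 members higher and 0 lower among 14262 genes (0% and 0% of all genes). At an unadjusted *P* below 0.05, 1 member was higher and 2 were lower (710 and 444 of all genes), and DESeq2 called 0 and 0. Without *F*-cKO library 2 the members' count was again 0 and 0, and their median moved from −0.0435 to −0.178. The median over all genes was −0.0738 in the main fit and is not given without that library, so the move is not read as particular to the members.

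**Figure D4:**
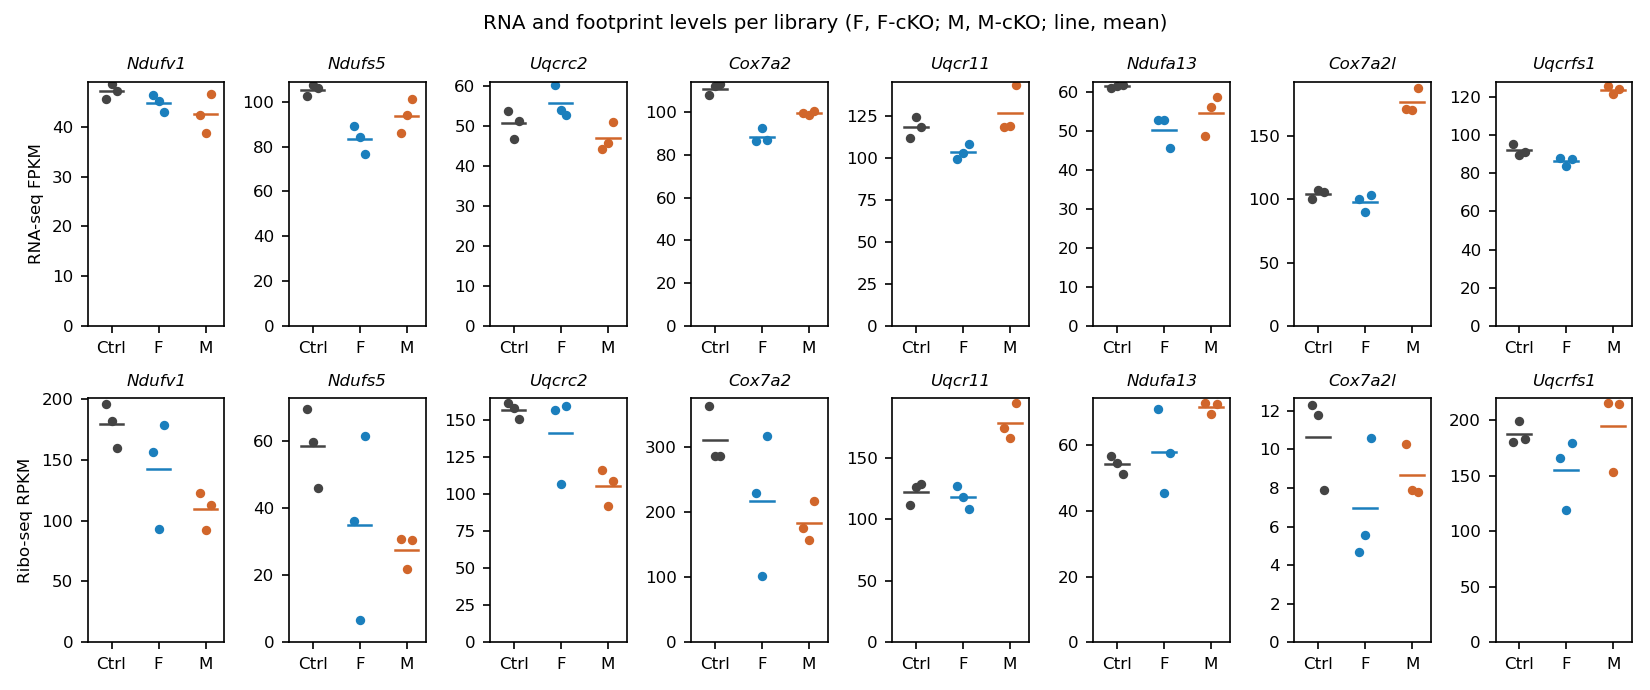
RNA-seq FPKM (top) and Ribo-seq RPKM (bottom) of 8 members, with 1 dot per library and a line at the mean of 3. *Ndufs5* and *Cox7a2* footprints are low in *M*-cKO and in 2 of 3 *F*-cKO libraries, and *Cox7a2l* RNA is high in *M*-cKO with no rise in footprints.

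TE was tested as the interaction of assay and genotype. In *M*-cKO, 1 member was called higher and 1 lower, compared to 1.24% and 0.824% of 14328 genes. *Ndufa13* had a TE of 0.881 in Ctrl and 1.31 in *M*-cKO (log2 change 0.65 ± 0.108, adjusted *P* = 0.0187), with RNA of 61.0, 61.7 and 61.9 FPKM in Ctrl and 48.7, 56.2 and 58.7 in *M*-cKO. *Cox7a2l* had a TE of 0.102 in Ctrl and 0.0489 in *M*-cKO (−0.98 ± 0.205, adjusted *P* = 0.0369). Its RNA was higher while its footprints, at 12.3, 11.8 and 7.88 RPKM in Ctrl and 10.3, 7.91 and 7.78 in *M*-cKO, overlapped. Both calls were lost with all groups in one fit, with the replicate block, and without any one of RNA-seq Ctrl libraries 2 and 3, RNA-seq *M*-cKO libraries 1 and 2 and Ribo-seq Ctrl library 2, where 0 members and at most 0.0767% of all genes in either direction were called. *Ndufa13* alone was called without RNA-seq Ctrl library 1, RNA-seq *M*-cKO library 3, Ribo-seq Ctrl library 1 or Ribo-seq *M*-cKO library 2. Without Ribo-seq Ctrl library 3 or Ribo-seq *M*-cKO library 1, 2 were higher and 2 lower, and without Ribo-seq *M*-cKO library 3, 1 was higher and 5 were lower (3.13% and 2.69% of all genes). DESeq2 called 3 higher and 6 lower (3.79% and 3.36% of all genes), and 2 higher and 2 lower were called among protein-coding genes only, with *Ndufs5* and *Uqcr11* added. Counts given here without a share of all genes beside them are not read as results about the members.

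In *F*-cKO, edgeR called 0 members with higher and 0 with lower TE among 14322 genes (0% and 0% of all genes). At an unadjusted *P* below 0.05, 2 members were higher and 0 lower (409 and 835 of all genes), and DESeq2 called 0 and 0. *M*-cKO compared to *F*-cKO also gave 0 and 0 among 14314 genes (0% and 0%). There, 0 members were higher and 2 lower at an unadjusted *P* below 0.05 (316 and 227 of all genes), with 0 and 0 by DESeq2. Without Ribo-seq *F*-cKO library 2 both comparisons again gave 0 and 0, and the members' median TE change moved from 0.0384 to 0.247 in *F*-cKO against Ctrl and from −0.0963 to −0.273 between the knockouts. Over all genes the medians in the main fits were −0.00176 and 0.00226. They are not given without that library, so the moves are not read as particular to the members.

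Other genes of the pathway were read from fixed lists. The 13 subunits encoded by mitochondrial DNA, partners of the members in complexes I, III and IV and in ATP synthase, had 9 called lower in *F*-cKO RNA-seq, compared to 9.57% of all genes, with a median of −0.517. In *M*-cKO 11 were lower, compared to 14.1%, with a median of −0.573, and each of the 13 had a negative fold in both. Their summed RNA was 15002, 13527 and 16930 FPKM in Ctrl, 10674, 10541 and 12379 in *F*-cKO, and 11155, 11889 and 10214 in *M*-cKO. All 6 knockout libraries were below all Ctrl libraries, whereas the nuclear members summed below Ctrl in every library in *F*-cKO and not in *M*-cKO. *mt-Nd2* had −0.63 in *F*-cKO (adjusted *P* = 0.00652) and *mt-Cytb* −0.59 in *M*-cKO (adjusted *P* = 0.000533). Their footprints summed to 31.4, 41.0 and 70.4 RPKM in Ctrl, 68.4, 214 and 40.3 in *F*-cKO, and 71.5, 216 and 38.8 in *M*-cKO, so this Ribo-seq holds few fragments of mitochondrial mRNAs compared to their RNA. In *M*-cKO footprints 2 of 8 tested were called higher, compared to 7.13% of all genes, namely *mt-Nd4* (3.12, adjusted *P* = 0.0311) and *mt-Nd5* (2.91, adjusted *P* = 0.0315), opposite to their RNA, and the same 2 were higher in TE.

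Nuclear subunits of ATP synthase, of which 17 were tested, had 5 called lower in *F*-cKO RNA-seq, compared to 9.57% of all genes, led by *Atp5e* (−0.35, adjusted *P* = 0.00409). In *M*-cKO 1 was higher and 4 were lower, compared to 15.5% and 14.1%. *M*-cKO footprints of the genes for subunit c split, with *Atp5g2* at 1.04 (adjusted *P* = 0.019), *Atp5g3* at −0.83 (adjusted *P* = 0.0191) and *Atp5g1* at −0.90 (adjusted *P* = 0.0203). These encode the same mature protein. Assembly factors, which build the complexes without staying in them, had 4 of 44 called lower in *F*-cKO RNA-seq, compared to 9.57% of all genes, and 8 higher and 3 lower in *M*-cKO, compared to 15.5% and 14.1%. *Uqcc3*, an assembly factor of complex III, rose from 23.2, 21.8 and 20.6 FPKM in Ctrl to 34.7, 35.7 and 40.8 in *M*-cKO (0.75, adjusted *P* = 0.000233). In *M*-cKO footprints 3 of 43 assembly factors were called higher and 2 lower, compared to 7.13% and 7.5% of all genes, with a median of 0.0116. *Tmem126a*, linked to complex I assembly and 1 of those lower, had *M*-cKO footprints of 8.55, 6.38 and 11.6 RPKM compared to 27.1, 25.9 and 20.7 in Ctrl (−1.47, adjusted *P* = 0.00925). Its *F*-cKO values of 11.6, 8.07 and 24.0 RPKM again had the deep library near Ctrl. Of the regulators of mitochondrial gene expression, 2 of 13 were higher in *F*-cKO RNA-seq, compared to 11.5% of all genes, namely *Gabpa* (0.27, adjusted *P* = 0.0208) and *Gabpb1* (0.23, adjusted *P* = 0.0309), and 6 of 14 were higher in *M*-cKO, compared to 15.5%. Those included *Twnk*, the mitochondrial DNA helicase (0.69, adjusted *P* = 7.69e-05), *Pprc1* (0.52, adjusted *P* = 0.00109) and *Nrf1* (0.27, adjusted *P* = 0.0129). *Cycs*, the mobile cytochrome c, was lower in *F*-cKO (−0.18, adjusted *P* = 0.0355).

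Cell type markers moved beside these results. In RNA-seq the shares of all genes called higher and lower, to be set beside the counts below, were 11.5% and 9.57% in *F*-cKO and 15.5% and 14.1% in *M*-cKO. Among progenitor markers, *Sox2* (0.45, adjusted *P* = 0.0064), *Pax6* (0.71, adjusted *P* = 0.0102) and *Eomes* (0.61, adjusted *P* = 0.0197) were higher in *F*-cKO. In *M*-cKO, *Sox2* (0.90, adjusted *P* = 3.19e-05) and *Hes5* (0.45, adjusted *P* = 0.0408) were higher in RNA-seq, and *Sox2* (1.12, adjusted *P* = 0.00817) and *Emx1* (0.59, adjusted *P* = 0.0348) in footprints. Of 6 excitatory neuron markers, 2 were higher and 1 lower in *F*-cKO, and 4 higher and 1 lower in *M*-cKO, with *Tubb3* the most abundant. They summed to 1910, 1920 and 2052 FPKM in Ctrl, 1872, 1800 and 1741 in *F*-cKO, and 2045, 1971 and 2099 in *M*-cKO. Of 6 meningeal markers, 3 were lower in *F*-cKO, with sums of 11.8, 22.2 and 12 FPKM in Ctrl, 7.43, 2.97 and 9.78 in *F*-cKO and 6.06, 22.7 and 30.5 in *M*-cKO, and *Col3a1* was the most abundant. Of 6 endothelial markers *Cldn5*, the most abundant, was lower in *F*-cKO (−0.63, adjusted *P* = 0.00389), while 4 of the 6 had a positive fold and the median was 0.0112. The list, in which *Cldn5* weighs most, summed to 48.6, 52.3 and 52.3 FPKM in Ctrl, 41.9, 36.6 and 36.4 in *F*-cKO, and 39.6, 49.5 and 55.4 in *M*-cKO. Of 8 erythroid markers, with *Hba-a1* the most abundant, 1 was higher and 1 lower in *F*-cKO, and 1 was higher in *M*-cKO. They summed to 487, 879 and 475 FPKM in Ctrl, 427, 364 and 515 in *F*-cKO, and 489, 588 and 728 in *M*-cKO. Of 6 microglial markers 5 had a negative fold in *F*-cKO RNA-seq (median −0.319, smallest adjusted *P* = 0.0515).

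Markers moved in footprints as well. In *M*-cKO all 6 meningeal markers had a negative fold (median −0.889, smallest adjusted *P* = 0.158), as did 5 of 6 endothelial markers (median −0.583, smallest adjusted *P* = 0.102), and of the 6 excitatory neuron markers 1 was called higher and 1 lower, compared to 7.13% and 7.5% of all genes. In *F*-cKO all 6 endothelial markers had a positive fold (median 2.27, smallest adjusted *P* = 0.730), with library 2 far above the others. All 6 meningeal markers were positive there too (median 0.451), with sums of 8.46, 44.1 and 22.5 RPKM. Of the excitatory neuron markers 5 of 6 had a negative fold (median −0.265). They summed to 3669, 1713 and 4174 RPKM in *F*-cKO, compared to 4086, 3573 and 4103 in Ctrl, lowest in library 2. None of these markers was at 0 in Ctrl, and their part in the members' results was not tested.

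The members lie on 19 chromosomes, with up to 9 on one (chromosome 7). On the map 19 of the 68 overlap another RefSeq gene and 11 a protein-coding one, such as *Cox7a2* with *Tmem30a*, *Ndufa13* with *Tssk6*, *Uqcrq* with *Gdf9*, *Ndufv2* with *Ankrd12* and *Uqcrc2* with *Pdzd9*. The strand used in counting is not stated, so counts of these genes may include reads of the neighbour.

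Promoters of the members were read from the RefSeq table of build GRCm38.p6, which held 56 windows of 300 bases for 54 members. Each window was searched on both strands. CATGCGC, part of an NRF1 site, was in 10 of 56 windows (17.9%, compared to 3.91% of all 32851 promoters). CCGGAAG, an ETS or GABPA site, was in 11 (19.6%, compared to 8.86%). AAGATGG, a YY1 site, was in 8 (14.3%, compared to 6.34%), and GGGCGG, a GC box, in 24 (42.9%, compared to 35.7%). NRF1 and GABPA are known regulators of respiratory genes, and a match is a description of letters, not a bound site. Of the 10 members with CATGCGC, 4 were called lower in *F*-cKO RNA-seq, compared to 29 of the 62 tested and 9.57% of all genes. For the ETS or GABPA site it was 6 of 10 tested, for the YY1 site 5 of 8 and for the GC box 8 of 21. Shown are the 250 bases before the start of 3 members lower in *F*-cKO that hold CATGCGC, chosen after their values were seen. They are *Cox6a1* (chr5:115348959-115349208, minus strand), *Ndufb6* (chr4:40279422-40279671, minus strand) and *Ndufa8* (chr2:36049339-36049588, minus strand). Capitals mark matches to these motifs, and in *Cox6a1* CATGCGC matches on both strands and overlaps itself.
Cox6a1: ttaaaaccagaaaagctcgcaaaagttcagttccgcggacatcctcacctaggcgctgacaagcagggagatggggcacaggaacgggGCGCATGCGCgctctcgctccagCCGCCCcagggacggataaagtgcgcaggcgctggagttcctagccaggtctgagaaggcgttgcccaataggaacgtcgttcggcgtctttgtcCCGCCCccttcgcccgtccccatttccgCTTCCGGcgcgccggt
Ndufb6: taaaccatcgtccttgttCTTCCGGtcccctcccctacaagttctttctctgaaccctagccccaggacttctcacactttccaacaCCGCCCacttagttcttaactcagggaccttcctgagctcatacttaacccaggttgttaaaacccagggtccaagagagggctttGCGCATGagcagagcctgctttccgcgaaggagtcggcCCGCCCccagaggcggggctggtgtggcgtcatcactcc
Ndufa8: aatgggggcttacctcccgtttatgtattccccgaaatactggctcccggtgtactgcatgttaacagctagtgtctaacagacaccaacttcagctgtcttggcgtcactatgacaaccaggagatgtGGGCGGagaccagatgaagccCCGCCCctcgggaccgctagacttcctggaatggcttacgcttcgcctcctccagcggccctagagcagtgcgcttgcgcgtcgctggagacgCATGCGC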

How the data were processed

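RNA-seq and Ribo-seq libraries (3 per group and assay, 18 in all) were grouped by their labels. Submitters' processing notes name HISAT2 2.0.5, TopHat2, HTSeq, DESeq2 1.14.1 and mm10. The authors aligned RNA-seq reads with HISAT2 and deposited raw read counts per gene, with no counting tool stated, and Ribo-seq counts made with TopHat2 and HTSeq. The deposited FPKM (RNA-seq) and RPKM (Ribo-seq) values were scaled by the authors for gene length and library size, and are used here for levels only. Counts were fitted in R 4.3.3 with edgeR 4.0.16 (filterByExpr with minimum count 10 and total 15, TMM scaling, quasi-likelihood test), each comparison over its own libraries, with Benjamini-Hochberg adjustment over all genes and a threshold of 0.05. Of 54838 Ribo-seq genes, the 14348 with counts in all 9 libraries were used. The tests were checked on simulated counts. Alternatives were DESeq2 1.42.0, RLE scaling, no filter, all groups in one fit, a replicate block, protein-coding genes only (Ribo-seq and TE) and leaving out each library. A length offset (lowess of each library's log ratio on gene model length, span 0.3) and a filter in each assay were added after the data were seen. Members and lists were chosen with earlier results of these data known. Named genes are, per comparison and complex, the 4 called members with the smallest adjusted *P*, the highest and lowest folds, calls against the main direction, core subunits of complex I, complex II, *Uqcrc1*, *Uqcrfs1*, complex IV isoforms, the 3 highest and lowest Ctrl levels, and up to 3 called genes of each other list. Members named outside this rule were chosen after their values were seen. Summed levels of progenitor markers are not reported here.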

Additional observations from a re-analysis of the deposited data

Results flagged for a closer look

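Between the knockouts themselves, RNA-seq levels of 18 of the 62 members tested differed, which is why they are listed here. In *M*-cKO 14 were higher and 4 lower, compared to 13.1% and 14.3% of all genes. Values are log2 differences, positive where *M*-cKO was higher, from the edgeR quasi-likelihood test with adjustment over all genes. In complex I they were *Ndufa1* 0.46 (adjusted *P* = 0.00495), *Ndufv2* −0.26 (adjusted *P* = 0.0124), *Ndufb5* 0.24 (adjusted *P* = 0.0314) and *Ndufs1* −0.21 (adjusted *P* = 0.0393). In complex II the difference was *Sdha* −0.28 (adjusted *P* = 0.0134). In complex III they were *Uqcrfs1* 0.51 (adjusted *P* = 0.00031), *Uqcrq* 0.44 (adjusted *P* = 0.000808), *Uqcr10* 0.36 (adjusted *P* = 0.00356), *Uqcr11* 0.29 (adjusted *P* = 0.0295) and *Uqcrc2* −0.25 (adjusted *P* = 0.0304). In complex IV they were *Cox7a2l* 0.84 (adjusted *P* = 8.16e-05), *Cox8a* 0.51 (adjusted *P* = 0.000463), *Cox6a1* 0.54 (adjusted *P* = 0.00235), *Cox7c* 0.27 (adjusted *P* = 0.0116) and *Cox6b2* 0.88 (adjusted *P* = 0.0157). Further complex IV differences were *Cox6b1* 0.24 (adjusted *P* = 0.017), *Cox6c* 0.22 (adjusted *P* = 0.0214) and *Cox4i1* 0.29 (adjusted *P* = 0.0294). *Cox6b2*, with the largest difference of the 18, had 1.93, 2.03 and 2.22 FPKM in *F*-cKO and 2.86, 4.33 and 4.25 in *M*-cKO, against 2.38, 3.79 and 2.02 in Ctrl.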

How the results depend on the processing

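No called member reversed under any alternative run. Member counts in this section stand without the share of all genes called in the same fits. That share moved between fits too, as given above for part of them, so these counts are not read as results about the members alone. For *F*-cKO RNA-seq, members called higher were 1 with all groups in one fit; members called lower were 18 with the replicate block, 7 with the gene length offset, and 13 to 25 with a library left out. For *M*-cKO RNA-seq, 6 were higher and 7 lower with no filter, 5 higher with the length offset, and 3 to 5 higher and 5 to 19 lower with a library left out. For *M*-cKO against *F*-cKO RNA-seq, 2 were lower with the block, and 9 to 15 higher and 0 to 4 lower with a library left out. For *M*-cKO footprints, 13 were lower by DESeq2, 0 higher and 0 lower with all groups in one fit, 1 higher with the block, and 0 to 4 higher and 0 to 10 lower with a library left out. For *M*-cKO TE, 3 were higher and 6 lower by DESeq2, 0 and 0 with all groups in one fit or the block, 2 and 2 among protein-coding genes or with the low-count filter passed in each assay, and 0 to 2 higher and 0 to 5 lower with a library left out. The causes were not tested. Of calls of single members under each alternative, 239 of 348 held in *F*-cKO RNA-seq, 130 of 180 in *M*-cKO RNA-seq, 179 of 216 between knockouts, 88 of 143 in *M*-cKO footprints and 20 of 38 in TE. Deviations from group means of libraries with the same number in different groups correlated at −0.144 to 0.163 in RNA-seq and −0.278 to 0.156 in Ribo-seq, so the replicate block is not known to pair anything. Ribo-seq depth was lower in every *M*-cKO library than in Ctrl. Detection by size of change was checked only on simulated counts, for part of the comparisons and at changes larger than those of most members. The length offset and the filter in each assay were chosen after the data were seen.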
